A study of Mus musculus with 30 samples.

Results

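The bone morphogenetic protein (BMP) ligand Bmp4, the Id genes Id1, Id2 and Id3, the inhibitors Smad6 and Bambi, and the homeobox genes Msx1 and Msx2 were followed over 30 Illumina arrays of mouse embryonic stem cells (ESCs). The 8 genes were chosen by name, and every probe that carries one of these symbols was taken. There were 8 such probes for 7 of the genes among 25697 probes on the array. Id2 had 2 probes and Msx2 had none. Of the 8 probes, 7 were detected on at least 3 arrays and were tested, for 6 genes. The Bambi probe was detected on 1 of 30 arrays and was not tested.

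The cells were rescue clones of Ainv15, an ESC line that expresses the reverse tetracycline transactivator. In Bub1b_R, Chek1_R, Ppm1g_R and Ppp2r1b_R an shRNA is directed at the named mRNA of the cell, and doxycycline (Dox, 1 μg/ml) turns on an shRNA-immune copy from a cDNA. Bub1b is a spindle checkpoint kinase, Chek1 a DNA damage checkpoint kinase, Ppm1g a metal-dependent phosphatase and Ppp2r1b a scaffold subunit of phosphatase PP2A. Control_R is the control clone in the same line, and its labels give the strain background 129P2/OlaHsd. Each of the 5 clones was sampled with Dox and 5 days after Dox withdrawal, with 3 arrays for each of the 10 conditions. All cells had been kept on mouse embryonic fibroblasts in medium with leukaemia inhibitory factor (LIF), and were taken off these feeders before the 5 days. Several independent clones were made for each gene, and no label says whether the 3 arrays of a group came from different clones or from separate cultures. The word clone below stands for the group that carries a label. The p-values therefore measure the spread between these arrays, which may be technical, and the number of arrays limits the precision.

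BMP ligands bind receptor serine kinases that phosphorylate Smad1, Smad5 and Smad9, which enter the nucleus with Smad4 and switch on target genes. The Id genes are classic direct targets, and their proteins bind E proteins and keep them from DNA. Smad6 and Bambi are feedback inhibitors, the former inside the cell and the latter a receptor-like protein without kinase activity. Msx1 and Msx2 encode homeodomain repressors that BMPs induce in many tissues. In mouse ESCs, BMP4 together with LIF sustains self-renewal in part through Id proteins, whereas in the embryo Bmp4 is needed to form mesoderm at the primitive streak.

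The promoters of the 4 genes on which the results turn and for which a sequence was at hand are shown. These are RefSeq windows on GRCm38.p6 from 250 bases before to 50 bases after the start of the gene, read 5′ to 3′ on the strand of the gene. Msx1 lies at chr5:37824536-37824835 on the minus strand, Bmp4 at chr14:46390620-46390919 on the minus strand, Id3 at chr4:136143572-136143871 on the plus strand and Id2 at chr12:25096043-25096342 on the minus strand. Capitals mark the GC-rich Smad1/5 element GGCGCC, the Smad binding site CAGAC and the CCAAT box CCAAT, each searched on both strands.
Msx1: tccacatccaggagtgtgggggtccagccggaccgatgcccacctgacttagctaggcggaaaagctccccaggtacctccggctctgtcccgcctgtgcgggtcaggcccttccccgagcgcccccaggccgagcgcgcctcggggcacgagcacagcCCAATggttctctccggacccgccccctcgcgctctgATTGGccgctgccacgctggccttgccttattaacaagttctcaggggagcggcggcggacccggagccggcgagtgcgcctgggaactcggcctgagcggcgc
Bmp4: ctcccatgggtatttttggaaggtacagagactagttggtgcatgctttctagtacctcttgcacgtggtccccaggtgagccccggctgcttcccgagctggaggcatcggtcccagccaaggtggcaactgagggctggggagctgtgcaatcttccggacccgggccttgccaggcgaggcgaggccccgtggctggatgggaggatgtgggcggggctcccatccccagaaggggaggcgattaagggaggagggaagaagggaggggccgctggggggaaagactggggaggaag
Id3: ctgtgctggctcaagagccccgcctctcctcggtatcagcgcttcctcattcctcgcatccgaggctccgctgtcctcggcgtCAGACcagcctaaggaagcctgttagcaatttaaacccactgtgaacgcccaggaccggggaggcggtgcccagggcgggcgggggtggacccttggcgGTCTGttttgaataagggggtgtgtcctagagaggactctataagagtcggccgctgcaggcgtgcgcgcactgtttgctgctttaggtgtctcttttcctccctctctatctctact
Id2: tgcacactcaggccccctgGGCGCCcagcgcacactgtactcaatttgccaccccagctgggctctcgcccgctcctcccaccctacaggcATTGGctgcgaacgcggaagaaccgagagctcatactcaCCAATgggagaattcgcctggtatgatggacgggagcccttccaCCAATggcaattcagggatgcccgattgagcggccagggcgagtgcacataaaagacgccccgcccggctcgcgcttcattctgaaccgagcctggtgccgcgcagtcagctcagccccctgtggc
Windows were at hand for 6 of the 8 genes. Of these 6, 1 held GGCGCC (Id2), 1 held CAGAC (Id3, at 2 positions) and 4 held CCAAT (Id2, Smad6, Msx1 and Msx2). No motif overlapped another in the printed windows. Over all 32851 promoter windows of this length, 11.9% held GGCGCC, 49.6% CAGAC and 37.4% CCAAT. The Bmp4 window held none of the 3 sets of letters. A match is a description of the letters and not a measured site.

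The arrays carry signal intensities, which were normalized and taken to log2, and a level below is this log2 value for a probe. A change is a difference of mean levels in a linear model (limma) fitted on all 15151 tested probes. A probe is called changed at a Benjamini-Hochberg adjusted p under 0.05 and at least 1.5-fold. Between 11733 and 13685 probes per array were detected, and replicate arrays correlated with r between 0.990 and 0.997. On the 12 arrays of Bub1b_R and Control_R, detection began at a signal of 12.9 to 20.9, and on the other 18 at 27.8 to 58.1, and no label names a chip or scan behind this split. The Control_R samples were also registered apart from the others, in an earlier range of sample numbers. In every comparison of levels with Control_R, Bub1b_R included, batch and clone cannot be told apart. Dox withdrawal compares arrays within a clone. As a check of the labels, Ppm1g fell by 1.25 on the log2 scale on Dox withdrawal in Ppm1g_R (adjusted p = 4.5e-09), whereas Bub1b in Bub1b_R (−0.14) and Ppp2r1b in Ppp2r1b_R (0.20) were not called. Chek1 went against its label, the brighter of its 2 tested probes being detected on 3 of 3 arrays labelled without Dox and 0 of 3 labelled with Dox, at least 1.35-fold higher without Dox, and the other not called. Results of this clone are therefore given under its label, which the Chek1 level does not bear out, although T and other streak genes described below were higher on its arrays labelled without Dox, as in the other 3 clones. Whether the probes of the targeted genes read the native mRNA, the cDNA copy or both was not checked. The Bub1b, Ppp2r1b and Chek1 levels therefore cannot decide whether the Dox labels of these clones are right. With the Dox labels of the Chek1_R arrays exchanged, every change of this clone would have the opposite sign. All 8 genes of an ESC marker list, among them Pou5f1 and Nanog, were detected in every condition.

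Bmp4 and Msx1 rose on Dox withdrawal in most or all targeted clones and not in Control_R. Msx1 rose in all 4 clones, by 3.95-fold in Bub1b_R and 2.01-fold in Ppm1g_R, where every array detected it, and by 7.01-fold under the Chek1_R label and 2.1-fold in Ppp2r1b_R, where 1 of 3 arrays with Dox did. Bmp4 rose in Bub1b_R, Ppp2r1b_R and under the Chek1_R label, and in Ppm1g_R it was higher by 1.35-fold, under the fold limit. The Id genes rose in some clones each, and only Ppm1g_R had calls for Id1, Id2 and Id3 together, a joint call that an offset of 200 ended. Of the 7 tested probes, 3 changed in Bub1b_R, 3 under the Chek1_R label, 4 in Ppm1g_R, 3 in Ppp2r1b_R and 0 in Control_R, and every one of these changes was an increase. Among all 15151 tested probes, 5.6% changed in Bub1b_R, 9.27% under the Chek1_R label, 4.37% in Ppm1g_R, 4.82% in Ppp2r1b_R and 1.1% in Control_R. In Control_R, 2 of the 7 probes, those of Id1 and the brighter of Id2, had an unadjusted p under 0.05 in limma, and Student's t-test with adjustment called 0. In bulk RNA, a higher level of a gene in each cell and a larger share of cells that express it cannot be told apart for any of these genes.

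**Figure D1:**
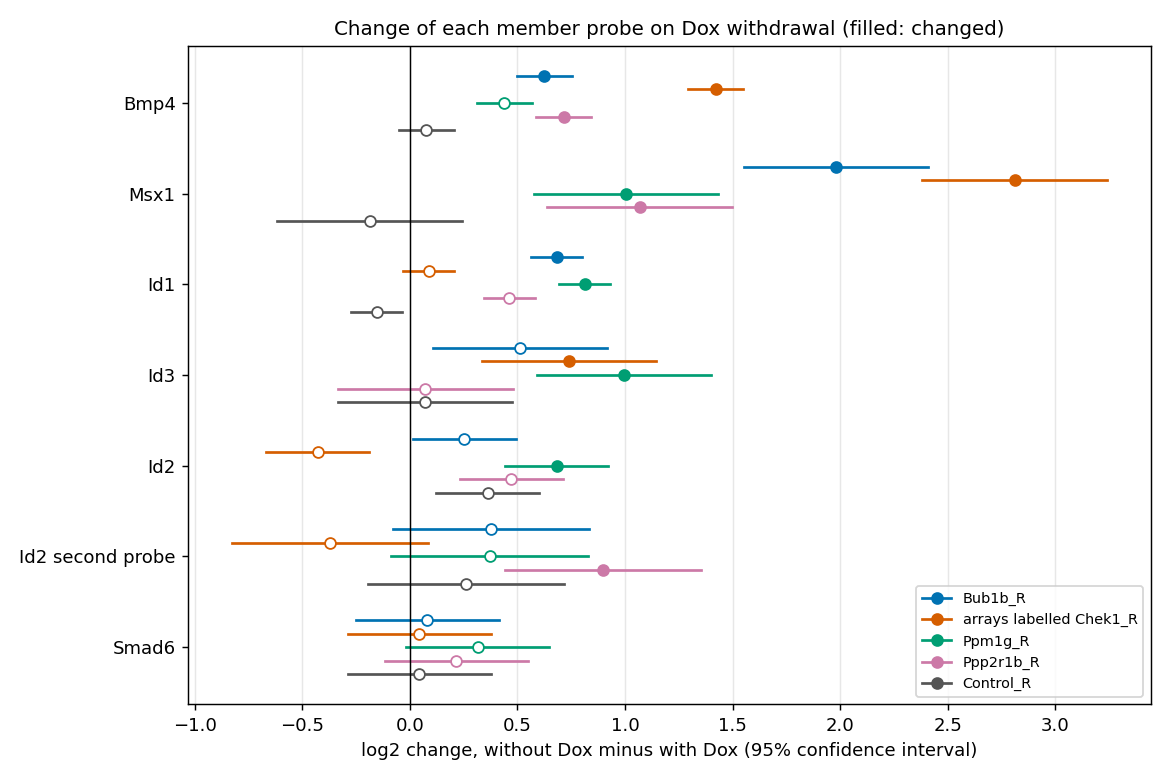
Log2 change of each tested member probe on Dox withdrawal (x axis, without Dox minus with Dox) for the 5 clones, as the mean difference of 3 against 3 arrays with its 95% confidence interval, filled where the probe was called changed. The Msx1 intervals lie above 0 in the 4 targeted clones and span 0 in Control_R, while the Smad6 intervals span 0 in all 5 clones.

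Bmp4, the ligand, was detected on all 30 arrays. In Bub1b_R its level was 10.52, 10.64 and 10.71 with Dox and 11.19, 11.28 and 11.28 without it. Under the Chek1_R label it was 10.02, 10.06 and 9.96 with Dox and 11.44, 11.35 and 11.51 without. Every array without Dox was above every array with Dox in these clones. In Ppm1g_R it was 11.10, 11.04 and 11.16 with Dox and 11.49, 11.59 and 11.53 without, and in Ppp2r1b_R 10.78, 10.79 and 10.76 with Dox and 11.46, 11.44 and 11.58 without. These groups did not overlap either, and Ppm1g_R with Dox already stood above the other clones with Dox. In Control_R the level was 9.79, 9.68 and 9.83 with Dox and 9.78, 9.91 and 9.85 without, and the groups overlapped. The change was 0.63 ± 0.06 (SE, log2) in Bub1b_R (adjusted p = 5.3e-08), 1.42 ± 0.06 under the Chek1_R label (adjusted p = 5.1e-15), 0.44 ± 0.06 in Ppm1g_R (adjusted p = 1.2e-05, under 1.5-fold) and 0.71 ± 0.06 in Ppp2r1b_R (adjusted p = 1.2e-08). In Control_R it was 0.08 (95% confidence interval −0.05 to 0.20). Ordered by level, Ppm1g_R, Ppp2r1b_R and the Chek1_R-labelled arrays, all without Dox, came first at means of 11.54, 11.50 and 11.43 and overlapped with their neighbours. Then followed, each without overlap, Bub1b_R without Dox (11.25), Ppm1g_R (11.10), Ppp2r1b_R (10.78), Bub1b_R (10.62) and the Chek1_R-labelled arrays (10.01) with Dox. Control_R was lowest, at 9.84 without and 9.77 with Dox, which overlapped. The call in Bub1b_R lay close to the fold limit and was lost without Bub1b_R +Dox replicate 1 (0.574) and with an offset of 200 (0.572).

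Msx1, a homeodomain repressor and BMP target, was the only member called on Dox withdrawal in each of the 4 targeted clones. In Bub1b_R its level was 6.95, 6.98 and 6.77 with Dox and 9.02, 8.83 and 8.79 without it. Under the Chek1_R label it was 5.38, 5.58 and 5.47 with Dox, detected on 1 of 3, and 8.52, 8.12 and 8.22 without Dox, detected on 3 of 3. In both clones the levels with and without Dox lay far apart. In Ppm1g_R it was 7.93, 7.85 and 7.82 with Dox and 8.96, 8.86 and 8.80 without. In Ppp2r1b_R it was 5.32, 5.82 and 5.47 with Dox, detected on 1 of 3, and 6.90, 6.52 and 6.39 without, detected on 3 of 3. In all 4 clones every array without Dox was above every array with Dox. In Control_R the level was 5.34, 5.93 and 5.94 with Dox and 6.16, 4.92 and 5.57 without, detected on 2 of 3 arrays in each condition, and the groups overlapped. The change was 1.98 ± 0.21 in Bub1b_R (adjusted p = 1.2e-07), 2.81 ± 0.21 under the Chek1_R label (adjusted p = 1.3e-10), 1.01 ± 0.21 in Ppm1g_R (adjusted p = 0.00087) and 1.07 ± 0.21 in Ppp2r1b_R (adjusted p = 5.0e-04). In Control_R it was −0.19 (95% confidence interval −0.62 to 0.24). With each undetected array put at its lowest detected level, a value with no test that was added after the data had been examined, the change was 2.69 under the Chek1_R label (6.47-fold) and 0.81 in Ppp2r1b_R (1.76-fold). Of the 15151 tested probes, 78 (0.515%) were called higher in all 4 clones, the Msx1 probe among them. Bub1b_R and Ppm1g_R without Dox had the highest levels and overlapped (8.88 and 8.87), followed by the Chek1_R-labelled arrays without Dox (8.29) and Ppm1g_R with Dox (7.87). Bub1b_R with Dox (6.90) and Ppp2r1b_R without Dox (6.60) overlapped. Control_R in both conditions, and Ppp2r1b_R and the Chek1_R-labelled arrays with Dox, formed the lowest group between 5.74 and 5.48, each overlapping its neighbour. The call in Ppm1g_R was lost with no background model (adjusted p = 0.18). The call in Ppp2r1b_R was lost with an offset of 200 (0.29, log2) and by Student's t-test with Benjamini-Hochberg adjustment (adjusted p = 0.082).

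**Figure D2:**
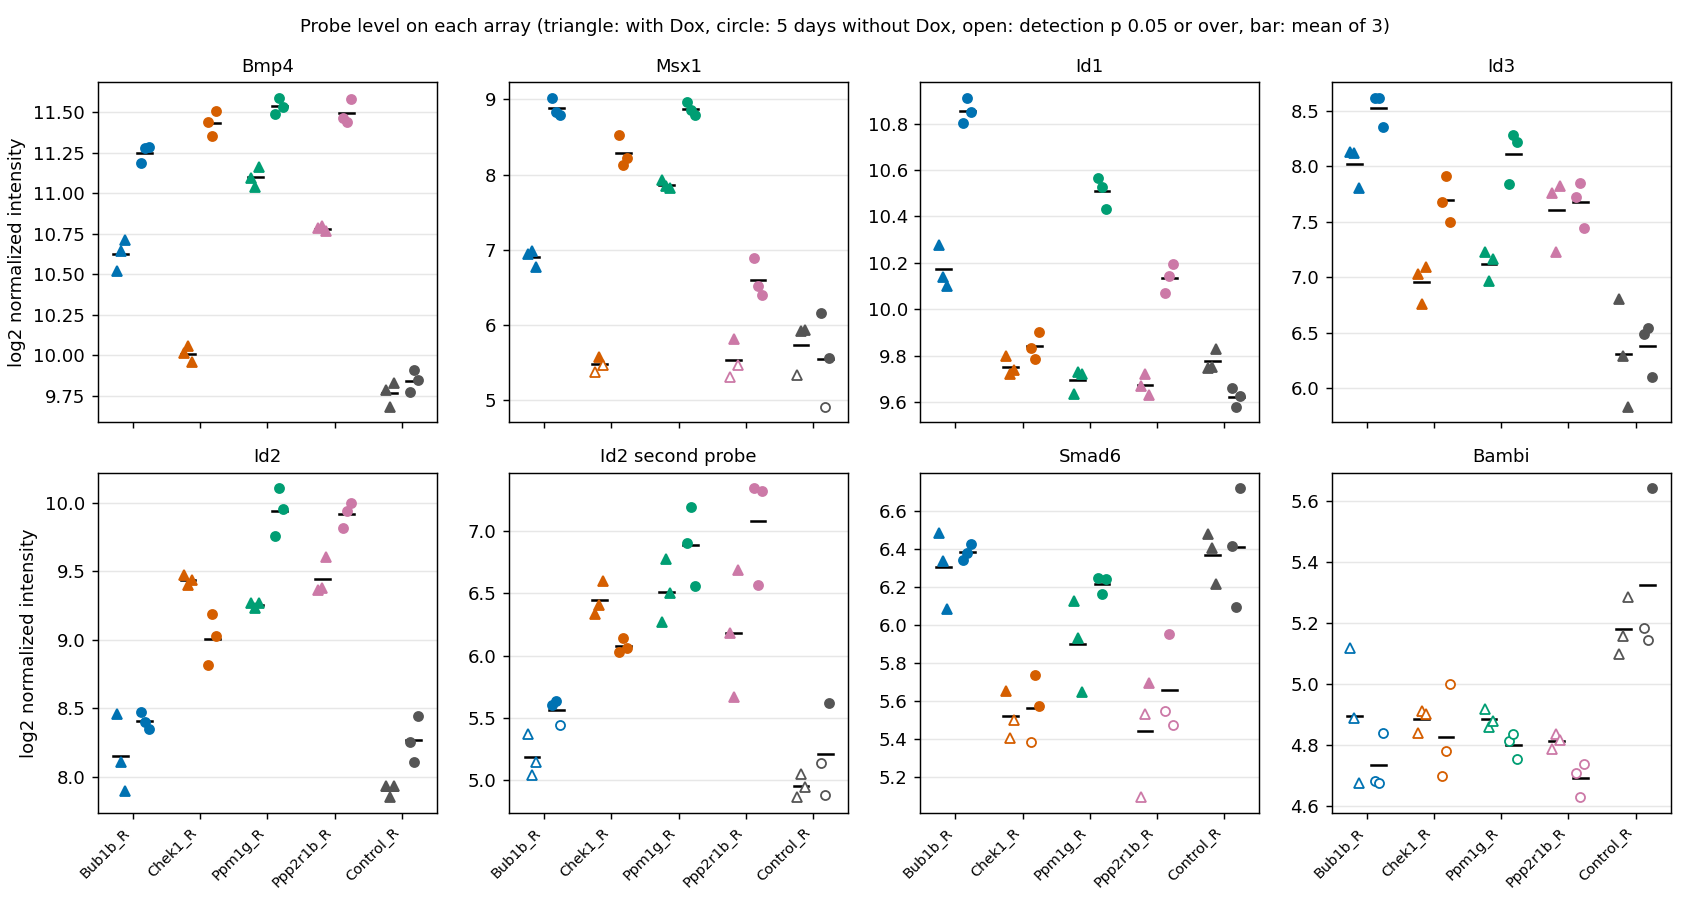
Level of each of the 8 member probes (y axis, log2 normalized intensity, a scale of its own in each panel) on the 30 arrays by clone (x axis). Triangles are arrays with Dox, circles arrays without, open symbols have a detection p of 0.05 or over, and bars are means of 3. Msx1 and Bmp4 lie higher without Dox in the 4 targeted clones, and Bambi is open on 29 of the 30 arrays.

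Id1, an inhibitor of basic helix-loop-helix factors and a direct BMP target, rose in Bub1b_R and Ppm1g_R. In Bub1b_R its level was 10.28, 10.14 and 10.10 with Dox and 10.80, 10.91 and 10.85 without, a change of 0.68 ± 0.06 (adjusted p = 3.9e-09). In Ppm1g_R it was 9.63, 9.73 and 9.72 with Dox and 10.57, 10.52 and 10.43 without, a change of 0.81 ± 0.06 (adjusted p = 3.7e-10). Neither pair of groups overlapped. In Ppp2r1b_R it was 9.67, 9.72 and 9.63 with Dox and 10.07, 10.14 and 10.19 without, a change of 0.46 ± 0.06 (adjusted p = 2.4e-06) that is under 1.5-fold. Under the Chek1_R label the level was 9.80, 9.72 and 9.74 with Dox and 9.83, 9.79 and 9.90 without, and the difference was 0.09 (95% confidence interval −0.03 to 0.21). Id1 was thus not called in a clone where Bmp4 and Msx1 were. In Control_R it was 9.75, 9.75 and 9.83 with Dox and 9.66, 9.58 and 9.62 without, so that all arrays without Dox were lower, with a difference of −0.15 (adjusted p = 0.11). By level, Bub1b_R without Dox (10.85) stood above Ppm1g_R without Dox (10.51), with no overlap between them. Then came Bub1b_R with Dox (10.17) and Ppp2r1b_R without Dox (10.14), which overlapped, and the other 6 conditions lay between 9.84 and 9.62 and each overlapped its neighbour.

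Id3, of the same family, rose in Ppm1g_R and under the Chek1_R label. In Ppm1g_R its level was 7.23, 6.96 and 7.16 with Dox and 7.84, 8.28 and 8.22 without, a change of 1.00 ± 0.20 (adjusted p = 0.00054). Under the Chek1_R label it was 7.03, 6.76 and 7.09 with Dox and 7.68, 7.92 and 7.50 without, a change of 0.74 ± 0.20 (adjusted p = 0.0052). In both clones the groups were apart. With an offset of 200 both changes came under 1.5-fold, at 0.52 in Ppm1g_R and 0.35 under the Chek1_R label. In Bub1b_R it was 8.13, 8.12 and 7.80 with Dox and 8.62, 8.62 and 8.35 without, and the difference of 0.51 ± 0.20 was not called (adjusted p = 0.060). In Ppp2r1b_R (0.07, 95% confidence interval −0.33 to 0.48) and Control_R (0.07, 95% confidence interval −0.34 to 0.47) the groups overlapped. Bub1b_R without Dox had the highest mean (8.53) and stood apart from Ppm1g_R without Dox (8.11). From there each condition overlapped the next lower one down to the Chek1_R-labelled arrays with Dox (6.96). Control_R had the lowest means, 6.38 without and 6.31 with Dox, and its highest array, at 6.80, was the only one to reach another condition.

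Id2 differed from Id1 and Id3, and its 2 probes did not give the same calls. The brighter probe, detected on all 30 arrays, rose in Ppm1g_R from 9.27, 9.23 and 9.27 to 9.75, 10.10 and 9.95, a change of 0.68 ± 0.12 (adjusted p = 1.1e-04) that came under 1.5-fold with an offset of 200 (0.55). Under the Chek1_R label it was 9.47, 9.40 and 9.44 with Dox and 8.82, 9.18 and 9.02 without, lower without Dox on every array (−0.43 ± 0.12, adjusted p = 0.0059, under 1.5-fold). The sign of this difference was the opposite of that in the other 4 clones. In Bub1b_R the difference was 0.25 (adjusted p = 0.12), in Ppp2r1b_R 0.47 (adjusted p = 0.0039, under 1.5-fold) and in Control_R 0.36 (adjusted p = 0.058). The dimmer probe, detected on 21 arrays, rose in Ppp2r1b_R from 6.18, 5.67 and 6.69 to 7.34, 6.57 and 7.32 (0.90 ± 0.22, adjusted p = 0.0040), where the groups overlapped. Its differences elsewhere were 0.38 in Bub1b_R, −0.37 under the Chek1_R label, 0.37 in Ppm1g_R and 0.26 in Control_R, none of them called. The 2 probes thus had the same sign in every clone and did not share a call on Dox withdrawal. The call of the dimmer probe was lost with only the arrays compared (adjusted p = 0.12), with no background model (adjusted p = 0.26), by Student's t-test (adjusted p = 0.27) and with an offset of 200 (0.31, log2). By level of the brighter probe, Ppm1g_R and Ppp2r1b_R without Dox were highest (9.94 and 9.92) and overlapped. Ppp2r1b_R (9.44) and the Chek1_R-labelled arrays (9.44) with Dox overlapped, and Ppm1g_R with Dox (9.25) and the Chek1_R-labelled arrays without Dox (9.01) each stood apart. The 4 conditions of Bub1b_R and Control_R were lowest, between 8.41 and 7.90, and each overlapped its neighbour. These 2 clones are also those in which detection began at the lower signal.

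Smad6, the inhibitory Smad, was not called on Dox withdrawal in any clone. Its differences were 0.08 in Bub1b_R (95% confidence interval −0.25 to 0.41), 0.04 under the Chek1_R label (−0.29 to 0.38), 0.31 in Ppm1g_R (−0.02 to 0.65), 0.22 in Ppp2r1b_R (−0.12 to 0.55) and 0.04 in Control_R (−0.29 to 0.38). The intervals leave room for changes near 1.5-fold in Ppm1g_R and Ppp2r1b_R. The probe was dim, detected on 23 of 30 arrays, with all levels between 5.09 and 6.72. By level, Control_R and Bub1b_R in both conditions and Ppm1g_R without Dox formed an upper group (6.41 to 6.22) in which each overlapped its neighbour. Ppm1g_R with Dox (5.90) came next and overlapped the lower group of Ppp2r1b_R and the Chek1_R-labelled arrays (5.66 to 5.44). Bambi, the receptor-like inhibitor, was above the detection limit on Control_R −Dox replicate 3 alone, at a level of 5.64 and a detection p of 0.025. Its other levels lay between 4.63 and 5.29, below the detection limit, and no change can be given.

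The change in each clone was set against that in Control_R. Msx1 exceeded the change in Control_R in all 4 clones, by 2.17 in Bub1b_R (adjusted p = 2.2e-05), 3.0 under the Chek1_R label (adjusted p = 5.6e-08), 1.19 in Ppm1g_R (adjusted p = 0.0080) and 1.26 in Ppp2r1b_R (adjusted p = 0.0091). These Msx1 sizes rest on Control_R levels close to background, detected on 2 of 3 arrays in each condition. With each undetected array put at its lowest detected level, the Msx1 change was −0.09 in Control_R, 2.69 under the Chek1_R label and 0.81 in Ppp2r1b_R, without a test. Id1 exceeded the change in Control_R by 0.83 in Bub1b_R (adjusted p = 2.4e-07), 0.97 in Ppm1g_R (adjusted p = 6.2e-08) and 0.62 in Ppp2r1b_R (adjusted p = 3.3e-05). Bmp4 exceeded it by 1.35 under the Chek1_R label (adjusted p = 4.2e-11) and 0.64 in Ppp2r1b_R (adjusted p = 5.0e-05), while 0.55 in Bub1b_R and 0.36 in Ppm1g_R were under 1.5-fold. Id3 exceeded it in Ppm1g_R by 0.93 (adjusted p = 0.028). The brighter Id2 probe fell short of it by −0.79 under the Chek1_R label (adjusted p = 0.0011). In all, 2, 3, 3 and 3 of the 7 probes were called in Bub1b_R, the Chek1_R-labelled arrays, Ppm1g_R and Ppp2r1b_R, where 5.15%, 8.99%, 5.27% and 3.28% of all tested probes were called. The Id3 call was lost without any of 5 single arrays, Ppm1g_R +Dox replicate 2 (0.85), Ppm1g_R −Dox replicate 2 (0.84) or 3 (0.88), Control_R +Dox replicate 1 (0.68) or Control_R −Dox replicate 3 (0.79). The Msx1 calls in Ppm1g_R and Ppp2r1b_R were lost with only the arrays compared (adjusted p = 0.056 and 0.13).

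Against Control_R without Dox, 4 of the 7 probes were called in Bub1b_R, and 6 in each of the other 3 targeted clones. The background was high, with 22.6% of all tested probes called for Bub1b_R, 28.8% for the Chek1_R-labelled arrays, 33.5% for Ppm1g_R and 33.7% for Ppp2r1b_R. In Bub1b_R, whose arrays resemble those of Control_R in the signal at which detection began, Msx1 was 3.33 ± 0.21 higher (adjusted p = 1.7e-12), Id3 2.15 ± 0.20 (adjusted p = 1.6e-09), Bmp4 1.41 ± 0.06 (adjusted p = 2.9e-15) and Id1 1.23 ± 0.06 (adjusted p = 8.3e-15) on the log2 scale, each on 9 of 9 array pairs. The Id2 probes (0.14 and 0.35) and Smad6 (−0.03) were not called. In the other 3 clones, Bmp4 was 1.59, 1.69 and 1.65 higher and Msx1 2.74, 3.32 and 1.05 higher under the Chek1_R label, in Ppm1g_R and in Ppp2r1b_R. Id3 was 1.32, 1.74 and 1.30 higher and the brighter Id2 probe 0.74, 1.67 and 1.65 higher in the same order. Id1 was called in Ppm1g_R (0.89) and not under the Chek1_R label (0.22) or in Ppp2r1b_R (0.51). Smad6 was the only member called lower, by −0.84 under the Chek1_R label and −0.75 in Ppp2r1b_R, at an adjusted p of 8.3e-05 and 2.6e-04. It was detected there on 2 and 1 of 3 arrays. Both Smad6 differences came under 1.5-fold with an offset of 50 (−0.55 and −0.49) or 200 (−0.22 and −0.20), and that in Ppp2r1b_R was lost by Student's t-test (adjusted p = 0.060). Msx1 in Ppp2r1b_R was lost with an offset of 200 (0.27) and by Student's t-test (adjusted p = 0.090). These comparisons share the 3 Control_R arrays without Dox.

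**Figure D3:**
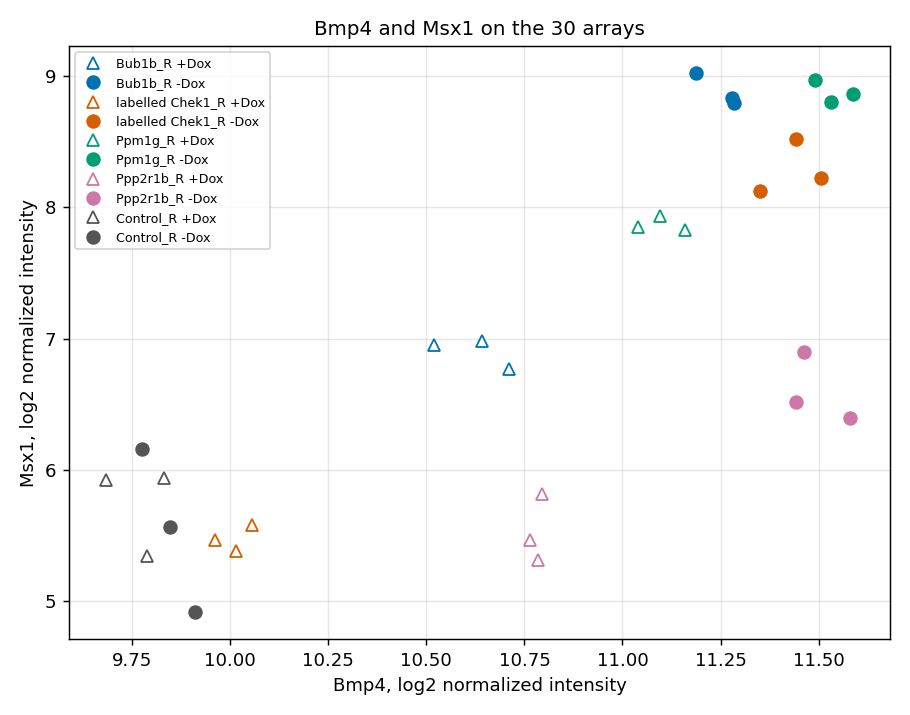
Level of Bmp4 (x axis) and of Msx1 (y axis), both as log2 normalized intensity, on each of the 30 arrays, with open triangles for arrays with Dox and filled circles for arrays without, coloured by clone. The Control_R arrays and the Chek1_R-labelled arrays with Dox lie at the lower left, and Ppp2r1b_R without Dox reaches the Bmp4 level of the other targeted clones at a lower Msx1 level (6.39 to 6.90).

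The targeted clones differed among themselves in these genes. An F-test of the change on Dox withdrawal over the 4 clones, added after the data had been examined, passed at an adjusted p of 5.9e-08 for Bmp4, 2.2e-06 for Id1, 1.1e-04 for the brighter and 0.026 for the dimmer Id2 probe, and 1.3e-04 for Msx1. It did not pass for Id3 (adjusted p = 0.071) or Smad6 (adjusted p = 0.74), and 24% of all tested probes passed. Pairwise, 6 differences between clones were tested for each of the 7 probes, with p adjusted over all probes within a pair. Of the 12 that were called, 11 involved the Chek1_R-labelled arrays. Against Bub1b_R, 3 probes were called, as were 2.92% of all probes. Bmp4 changed by 0.80 less in Bub1b_R than under the Chek1_R label (−0.80, adjusted p = 1.3e-06), Id1 by 0.59 more (adjusted p = 2.8e-05) and Id2 by 0.68 more (adjusted p = 0.011). Against Ppm1g_R, 4 probes were called (6.08% of all probes), with Bmp4 0.98 and Msx1 1.80 higher under the Chek1_R label and Id1 (−0.73) and Id2 (−1.11) lower. Against Ppp2r1b_R, 4 probes were called (6.4% of all probes), with Bmp4 0.71 and Msx1 1.74 higher, and both Id2 probes lower (−0.90 and −1.27). The Msx1 difference from Bub1b_R (−0.83 for Bub1b_R minus Chek1_R, adjusted p = 0.10) was not called, and that of Id1 from Ppp2r1b_R was under 1.5-fold. Between Ppm1g_R and Ppp2r1b_R, Id3 rose by 0.92 more in the former (adjusted p = 0.026), where 5.12% of all probes were called. Between Bub1b_R and Ppm1g_R (1.95% of all probes called) and between Bub1b_R and Ppp2r1b_R (2.47%), 0 of the 7 probes were called by limma, with 3 and 2 at an unadjusted p under 0.05. The Msx1 differences in these pairs were 0.98 (95% confidence interval 0.37 to 1.58, adjusted p = 0.057) and 0.91 (0.31 to 1.52, adjusted p = 0.065), which does not show that the clones act alike.

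Of 46 other BMP pathway genes on a list drawn up for this purpose, 31 were tested, and most did not change on Dox withdrawal. In Bub1b_R 6 were higher and 1 lower, under the Chek1_R label 8 and 2, in Ppm1g_R 4 and 3, in Ppp2r1b_R 4 and 0, and in Control_R 0 and 0. Over all tested probes 5.6%, 9.27%, 4.37%, 4.82% and 1.1% were called in these comparisons. The median change over the tested genes was 0.07 in Bub1b_R, 0.07 under the Chek1_R label, 0.08 in Ppm1g_R and 0.17 in Ppp2r1b_R, beside −0.01, −0.02, −0.01 and −0.01 over all probes. In each targeted clone the largest rise on the list was that of Fst. Fst, which encodes follistatin, a secreted binder of activins and BMPs, rose by 2.14 in Bub1b_R, 1.09 in Ppm1g_R and 1.64 in Ppp2r1b_R (adjusted p = 2.1e-12, 2.9e-07 and 4.2e-10), and was detected on 1 of 3 arrays with Dox in Ppp2r1b_R. Under the Chek1_R label it was not well above background on the 3 arrays with Dox and stood at least 7.98-fold higher without it (adjusted p = 9.2e-17). The bound sets the mean without Dox against the lowest detected signal of each array with Dox, or the probe's own where that is higher. The fit also called the Fst change higher than that in Control_R in all 4 clones, and no size is given because Fst was not well above background on the 3 Control_R arrays with Dox. Bmper, a secreted modulator of BMP binding, rose by 1.47 in Bub1b_R (adjusted p = 1.5e-07, detected on 1 of 3 arrays with Dox), at least 1.70-fold under the Chek1_R label and at least 1.32-fold in Ppm1g_R, and was not well above background in Ppp2r1b_R or Control_R. Nog, which encodes the BMP antagonist noggin, rose by 0.67 in Bub1b_R, 2.04 under the Chek1_R label and 0.98 in Ppp2r1b_R. Its difference was −0.29 in Ppm1g_R and 0.53 in Control_R, neither called. Only the excess of 1.51 under the Chek1_R label over Control_R and the shortfall of −0.82 in Ppm1g_R were called for Nog. Of 8 tested extracellular antagonists, 3 were called higher on Dox withdrawal in Bub1b_R and 4 under the Chek1_R label. In Ppm1g_R 3 and in Ppp2r1b_R 2 were called higher, and not all of those under the Chek1_R label and in Ppm1g_R are named here.

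Among the other ligands, Bmp8b rose in the 4 targeted clones by 0.65, 0.67, 0.82 and 0.75 for Bub1b_R, the Chek1_R-labelled arrays, Ppm1g_R and Ppp2r1b_R. None of these exceeded the 0.28 of Control_R by enough to be called. Bmp7 fell by 0.75 under the Chek1_R label and by 0.97 in Ppm1g_R, opposite to Bmp4. Gdf3, a ligand of the same superfamily, fell by 0.59 under the Chek1_R label. Bmp2, Bmp6, Bmp15 and Gdf6 were not detected on enough arrays to be tested. Of the 5 tested receptors (Bmpr1a, Bmpr1b, Acvr1, Acvr2a and Acvr2b) and the transducers Smad1 and Smad5, 0 were called on Dox withdrawal in any clone by limma, with 5 differences at an unadjusted p under 0.05. The largest of these differences called on p alone was that of Bmpr1a in Ppp2r1b_R, 0.42 (adjusted p = 0.021). Against the change in Control_R, 1 of the 2 transducers was called higher in Bub1b_R, and no receptor was called in any clone. Smurf1, a ubiquitin ligase that acts on BMP Smads, fell by 0.63 in Bub1b_R and by 0.76 in Ppm1g_R, where 1 of 3 arrays without Dox detected it. Of the other BMP-responsive genes on the list, Gata3 rose by 1.14 in Bub1b_R, 1.17 under the Chek1_R label (detected on 1 of 3 with Dox) and 0.85 in Ppp2r1b_R, and Tfap2a rose at least 1.61-fold under the Chek1_R label. Id4, the other member of the Id family, went the other way and fell by 0.63 in Ppm1g_R, where Id1, Id2 and Id3 rose. Set against Control_R, 0 of the 7 tested genes of this group were called in Ppp2r1b_R, Gata3 included, and 3.28% of all probes. In Bub1b_R 1, under the Chek1_R label 2 and in Ppm1g_R 1 were called higher, and 5.15%, 8.99% and 5.27% of all probes were called. Of the 2 tested E protein genes, Tcf12 rose by 0.61 in Bub1b_R and 0.66 under the Chek1_R label. Tcf4, the brighter of the 2, was not called on Dox withdrawal in any clone. Against the change in Control_R, 1 of the 2 was called higher and 1 lower in Bub1b_R.

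**Figure D4:**
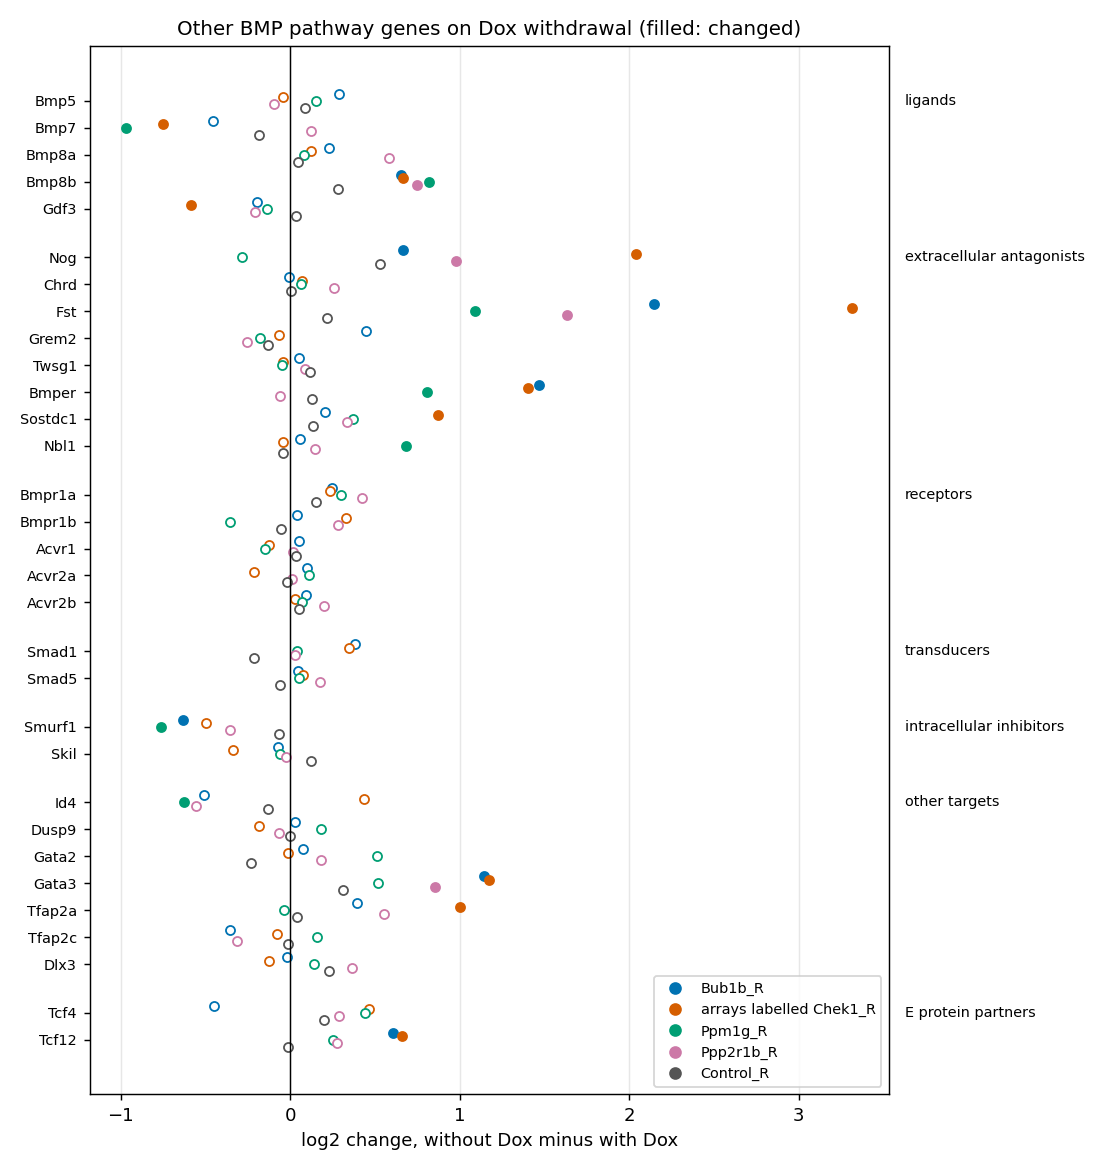
Log2 change on Dox withdrawal (x axis, without Dox minus with Dox, mean of 3 against 3 arrays) of the 31 tested genes of the BMP pathway list in each of the 5 clones, grouped by role and filled where called changed. Fst and Bmp8b are filled in all 4 targeted clones, and no receptor or transducer is filled.

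Markers of some other cell types also changed on Dox withdrawal. Over all tested probes 5.6% changed in Bub1b_R, 9.27% under the Chek1_R label, 4.37% in Ppm1g_R, 4.82% in Ppp2r1b_R and 1.1% in Control_R. Of 8 primitive streak and mesoderm genes, 7 rose in Bub1b_R, 7 under the Chek1_R label, 6 in Ppm1g_R, 4 in Ppp2r1b_R and 2 in Control_R, where T (0.75) and Fgf8 (0.76) rose. T, which encodes the mesoderm factor Brachyury, rose by 2.31, 4.44, 1.05 and 1.90 in the targeted clones in that order. The summed level of the 8 genes, in linear units, went from 1954 to 2018 with Dox to 7610.2 to 7647 without in Bub1b_R. It went from 636 to 689 up to 5739 to 6197 under the Chek1_R label, from 1932 to 2013 up to 3552 to 3713 in Ppm1g_R and from 1163 to 1237 up to 3146 to 3519 in Ppp2r1b_R. Its range in Control_R was 443 to 490.2 with and 512 to 538 without Dox. Mixl1, Eomes and Mesp1 were undetected on all arrays of both conditions in Ppp2r1b_R, where Eomes was nevertheless among the 4 called, while Bmp4 and Msx1 rose there. Of 4 tested genes of a trophoblast list, Cdx2, Krt8 and Krt18 rose in each of the 4 targeted clones, while Elf5, Hand1 and Prl3d1 were undetected on all 30 arrays. In Control_R 0 of the 4 tested were called by limma, with 3 at an unadjusted p under 0.05 and a median change of 0.38. Against the change in Control_R, 2, 2, 1 and 1 of the 4 were called higher in the targeted clones in the same order. Over all tested probes 5.15%, 8.99%, 5.27% and 3.28% were called there. Of 8 tested feeder fibroblast genes, 2, 3, 4 and 3 rose and 0, 1, 1 and 0 fell in Bub1b_R, the Chek1_R-labelled arrays, Ppm1g_R and Ppp2r1b_R, and 0 changed in Control_R. The summed level of the 12 feeder genes rose in Bub1b_R (8518 to 9525 with and 10778 to 11599.6 without Dox) and in Ppm1g_R (5505 to 5812 and 8717 to 9355). It was lower without Dox under the Chek1_R label (7859 to 8544 and 6536 to 6981), in Ppp2r1b_R (5229 to 5436 and 4508 to 4748) and in Control_R (4957 to 5245 and 4454 to 4594). This sum is carried largely by Acta2, with a mean level of 12.45, beside 8.35 for Thy1, the next brightest of the list. Over the 8 tested genes the median change was 0.35, 0.39, 0.59 and 0.25 in the targeted clones in the same order. In Control_R it was −0.01. Col1a2, Postn, Lum and S100a4 of this list were undetected on all 30 arrays. Of 5 tested primitive endoderm genes, 3 rose in Bub1b_R and 0 were called in any other clone. Nes, the 1 tested gene of a neural ectoderm list, was called in Bub1b_R alone (0.66). Its change was 0.27 under the Chek1_R label, 0.41 in Ppm1g_R, 0.52 in Ppp2r1b_R and 0.56 in Control_R. The excess of 0.11 in Bub1b_R over Control_R was not called. Of the 8 ESC genes, 1, 1, 0 and 3 were called lower in the targeted clones in the same order, and 0 in Control_R. The part of any of these cell types in the changes of the BMP genes was not tested.

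The genes whose levels followed each member most closely were found by Pearson's r over the 30 arrays after the mean of each clone was subtracted, as a description. The points share clones and Dox states, so r largely follows the shape of the response to Dox over the clones. For Bmp4 these were Defcr-rs7 (0.983), Fzd10 (0.982) and T (0.980), and for Msx1 Mcc (0.962), Evx1 (0.961) and Fst (0.957). Id1 was most like Col4a1 (0.931), Sec63 (0.901) and Phlda1 (0.898), and Id3 most like Mapre1 (0.897), Pvrl2 (0.854) and Pes1 (0.852). For Id2 they were Txndc13 (0.847), Itga3 (0.842) and Tia1 (0.841). Smad6 had no close partner, with 0.693 for Pom121 as the highest value.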

How the data were processed

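RNA of 30 samples was hybridised to 1-colour Illumina mouse bead arrays. The authors deposited a table of signal intensities, background-corrected but without normalization between arrays, and of detection p-values, for 25697 probes, and the submitters' processing notes name lumi, with no version. Probe symbols are those of the table. Of the deposited detection p-values, 14 on Bub1b_R −Dox replicate 2 and 46 on Ppm1g_R −Dox replicate 2 had been turned into spreadsheet dates. Of these, 6 and 28 were converted back, and 8 and 18 took the p of the probe nearest in signal.

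Intensities were corrected with the normexp model and quantile-normalized with neqc in limma 3.58.1 (R 4.3.3) with an offset of 16, using the detection p-values, and the deposited intensities were thus taken to the log2 scale. The 15151 probes whose detection p was under 0.05 in 3 or more samples were tested. A linear model of the 10 condition means was fitted over all 30 arrays with empirical Bayes moderation (20 residual and 3.38 prior degrees of freedom), and p-values were adjusted by Benjamini-Hochberg over all tested probes of a contrast. Changed means 1.5-fold or more at an adjusted p under 0.05. Of a gene with several probes, the brightest tested stands for it in counts. The linear model was tested on simulated data with known changes.

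Groups came from the labels. Every member probe is named, as are the 3 genes with the highest r to each member. Most pathway genes past the threshold on Dox withdrawal are named, and some others are given only in counts. Tcf3 was left off the list of E protein genes because that symbol also stood for another gene. The members and lists were chosen with earlier results of these data known. Equal replicate numbers did not pair samples, with 1 of 15 correlations of their deviations over 0.1. Alternatives were the background model, scaling, offset, detection filter, thresholds, the arrays fitted, a replicate block, Student's t-test and single arrays left out. The study's methods name Student's t-test for experiments in general and refer to earlier work for the arrays. The Benjamini-Hochberg adjustment of its p-values was added here. Chip and scan of each array are not given in the sources used here.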

Additional observations from a re-analysis of the deposited data

Results flagged for a closer look

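The change on Dox withdrawal was compared with that in Control_R for 7 member probes in 4 clones, which makes 28 comparisons, and between clones in 6 pairs, which makes 42. Of these, 11 and 12 differed by the test of the difference itself (limma, adjusted p under 0.05 and at least 1.5-fold, on the log2 scale). Over all tested probes, 3.28% to 8.99% were called in the comparisons with Control_R and 1.95% to 6.4% in those between clones.

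Against Control_R, where Msx1 was detected on 2 of 3 arrays in each condition, Msx1 differed by 2.17 in Bub1b_R, 3.0 under the Chek1_R label, 1.19 in Ppm1g_R and 1.26 in Ppp2r1b_R. Bmp4 differed by 1.35 under the Chek1_R label and 0.64 in Ppp2r1b_R. Id1 differed by 0.83 in Bub1b_R, 0.97 in Ppm1g_R and 0.62 in Ppp2r1b_R, Id3 by 0.93 in Ppm1g_R, and Id2 by −0.79 under the Chek1_R label.

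Between clones, the change in Bub1b_R minus that under the Chek1_R label was −0.80 for Bmp4, 0.59 for Id1 and 0.68 for Id2. The change under the Chek1_R label minus that in Ppm1g_R was 0.98 for Bmp4, −0.73 for Id1, −1.11 for Id2 and 1.80 for Msx1. Minus that in Ppp2r1b_R it was 0.71 for Bmp4, −0.90 for the brighter and −1.27 for the dimmer Id2 probe, and 1.74 for Msx1. The difference of Id3 between Ppm1g_R and Ppp2r1b_R was 0.92. The comparisons against Control_R share its 6 arrays.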

How the results depend on the processing

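Of 267 recomputed counts of changed member probes, 250 stayed within 1.5 times the count in the report, and of 914 recomputed changes of called probes, 851 kept their direction and side of the threshold, 63 fell short of it and 0 turned. With a limit of 2-fold, 1 probe each was called on Dox withdrawal in Bub1b_R, Ppm1g_R and Ppp2r1b_R, 1 each in these clones against the change in Control_R, and 3 under the Chek1_R label against Control_R without Dox. Over all 15151 probes the 2-fold limit left 153 of 849, 87 of 662 and 92 of 731 calls on Dox withdrawal in these 3 clones, and an offset of 200 left 162, 101 and 88. With no fold limit, 5 were called on Dox withdrawal in Ppp2r1b_R, and by Student's t-test 1, where all probes gave 3839 and 206 calls. With an offset of 200, 2 were called on Dox withdrawal in Ppm1g_R and 1 in Ppp2r1b_R, 1 in Ppp2r1b_R against the change in Control_R, and 2 each under the Chek1_R label and in Ppp2r1b_R against Control_R without Dox. In Ppm1g_R against the change in Control_R, 1 was called with no background model and 1 with only the arrays compared. In Ppp2r1b_R against the change in Control_R, median scaling left 1, where Bmp4 (0.58) and Id1 (0.57) came under 1.5-fold. Median scaling moved the median of all probes by 0.11 in Bub1b_R and by −0.14 in Ppp2r1b_R against Control_R without Dox. Leaving out single arrays gave 2 to 3 on Dox withdrawal in Bub1b_R, 2 to 3, 3 to 4 and 2 to 3 against the change in Control_R for Bub1b_R, the Chek1_R-labelled arrays and Ppm1g_R, and the reported count in the other 9 comparisons. Equal replicate numbers share only a number. With the replicate block every member count was as reported, and with a block within each clone 2 in place of 3 were called in Ppp2r1b_R against the change in Control_R, where Msx1 was lost (adjusted p = 0.053). Of same-numbered samples, 6 of 15 matched their own number best. Without the arrays labelled Chek1_R, an alternative chosen after seeing the data, the counts of the other 10 comparisons were as reported.

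Signs turned only for differences that were not called. With no background model, the dimmer Id2 probe against the change in Control_R gave −0.21 in Bub1b_R, −0.80 in Ppm1g_R and −0.14 in Ppp2r1b_R, and Id3 in Ppp2r1b_R −0.022. With median scaling, Id3 in Ppp2r1b_R gave −0.026 and Smad6 under the Chek1_R label −0.027, and Smad6 in Bub1b_R against Control_R without Dox gave 0.031. With offsets of 50 and 200, Smad6 under the Chek1_R label against the change in Control_R gave −0.0082 and −0.0080. With single arrays left out, the change on Dox withdrawal ranged from −0.17 to 0.32 (Id3), −0.49 to 0.13 (Msx1) and −0.11 to 0.20 (Smad6) in Control_R, from −0.11 to 0.19 for Id3 in Ppp2r1b_R, and for Smad6 from −0.028 to 0.17 in Bub1b_R and −0.041 to 0.13 under the Chek1_R label. Against the change in Control_R it ranged from −0.052 to 0.32 and −0.24 to 0.046 for the dimmer and brighter Id2 probe in Bub1b_R, −0.057 to 0.31 for the dimmer in Ppm1g_R and −0.24 to 0.24 for Id3 in Ppp2r1b_R. For Smad6 it ranged from −0.12 to 0.19 in Bub1b_R, −0.16 to 0.15 under the Chek1_R label and −0.00075 to 0.33 in Ppp2r1b_R, and from −0.18 to 0.13 in Bub1b_R against Control_R without Dox. Apart from what an offset or a limit does by its construction, the cause was not tested. Signal close to background limits Smad6 and the dimmer Id2 probe, and leaves Bambi without a measured change. It also limits Msx1 in Control_R and, with Dox, under the Chek1_R label and in Ppp2r1b_R.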
